A study of Mus musculus with 2 samples.

Results

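Classical monocytes of the old library are the blood cells described here: 1079 cell barcodes from mice of 24 months, 7.98% (7.53 to 8.45) of the 13517 old barcodes that passed a cell filter and part of 26438 such barcodes in both libraries. Members were chosen by their own transcripts: each had at least 10 unique molecular identifiers (UMIs, each tagging 1 captured transcript) summed over Ccr2, F13a1, Fn1 and Vcan, at least 1 UMI of Csf1r, and at most 1 UMI of Flt3 and Cd209a together. The same gate applied to the library of mice of 2 months gave 152 barcodes, 1.18% (0.998 to 1.38) of 12921. The study took blood from old and young mice, all labelled male and given no treatment in the labels, lysed the red cells, sorted live CD45+ CD11b+ Ly6G+ cells and captured them on the BD Rhapsody system, with 1 library per age. Its stated purpose concerns senescent neutrophils, and monocytes were not the target of the sort. The number of mice per library and the strain are not stated in the sources used here, and a single library for each age leaves the ages without a test. Values therefore describe these 2 libraries, and the 95% intervals in parentheses (exact Poisson for UMIs, exact Clopper-Pearson for shares) cover counting error only.

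Classical monocytes are the Ly6C-high monocytes of mouse blood. They leave the bone marrow through the chemokine receptor CCR2, circulate briefly, enter inflamed tissue and there become macrophages or dendritic cells. Those that stay in the blood convert into non-classical monocytes, Ly6C-low cells that patrol the vessel wall and depend on the nuclear receptor NR4A1. Ly6G, the antigen of the sort, is a neutrophil antigen, and monocytes are described as carrying little or none of it.

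The old library was the deeper one, with 14334 barcodes and a median of 7265.5 UMIs per barcode, against 13599 barcodes and a median of 4246 UMIs in the young library. The barcodes under the gate were closer in depth, at a median of 17708 UMIs in old members and 14757.5 UMIs in young ones. The 2 libraries shared 53 barcodes, 4 of them members, and none of the 4 passed the gate in the young library. Neutrophil RNA was present in cells that should not make it. Lymphocytes, gated on B and T cell genes and without Csf1r, held S100a8 at 19688 CPM (counts per 1000000, from UMIs summed over the cells) in the old library and 3690 CPM in the young one. The specific granule gene Ngp stood at 1098 CPM in old lymphocytes and 21.9 CPM in young lymphocytes, so this background differed between ages. The median lymphocyte held 28 S100a8 UMIs in the old library and 5 in the young one, and 2 and 0 Ngp UMIs. At least 10 UMIs of the neutrophil genes Csf3r, Cxcr2 and Mmp9 together were found in 294 old members (27.2%) and in 43 young cells (28.3%). The 785 old and 109 young cells below that limit are called low-neutrophil cells and are given beside results that neutrophil RNA touches. Lymphocytes were not split by that limit, which 41 old (11.4%) and 53 young (10.3%) lymphocytes reached. At least 5 UMIs of the non-classical genes Ace, Treml4, Adgre4 and Cd300e were found in 258 old members (23.9%) and in 94 young cells (61.8%). The 821 old and 58 young cells below that limit are called low-non-classical cells. Markers of B, T, NK cells or platelets made up 0.5% or more of the UMIs of 8 old members and 5 young cells.

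Promoter sequence is shown for 4 genes whose levels carry the differences below: Saa3, Prtn3 and Chil3, higher in old members than in young cells, and Isg15, lower in them. Each run is the 250 bases before the transcription start in RefSeq, build GRCm38.p6, 5′ to 3′ on the gene's own strand. The regions are chr7:46715677-46715926 on the minus strand for Saa3, chr10:79879417-79879666 on the plus strand for Prtn3, chr3:106167565-106167814 on the minus strand for Chil3 and chr4:156200819-156201068 on the minus strand for Isg15. Capitals mark matches to 3 motifs searched on both strands: TTNNGCAA, a core bound by C/EBP factors, GAGGAA, a core bound by PU.1, and the core of the interferon-stimulated response element (ISRE), which is GAAA, any 2 bases and GAAA again.
Saa3: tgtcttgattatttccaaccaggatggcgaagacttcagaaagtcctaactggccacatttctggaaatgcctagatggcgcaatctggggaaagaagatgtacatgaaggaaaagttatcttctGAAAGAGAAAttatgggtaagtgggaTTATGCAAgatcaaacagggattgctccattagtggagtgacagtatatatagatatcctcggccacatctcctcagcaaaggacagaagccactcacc
Prtn3: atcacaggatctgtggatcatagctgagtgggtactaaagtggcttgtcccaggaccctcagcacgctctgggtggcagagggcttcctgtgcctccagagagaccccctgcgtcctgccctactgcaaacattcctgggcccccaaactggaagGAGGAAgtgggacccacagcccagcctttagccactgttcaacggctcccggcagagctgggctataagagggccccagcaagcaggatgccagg
Chil3: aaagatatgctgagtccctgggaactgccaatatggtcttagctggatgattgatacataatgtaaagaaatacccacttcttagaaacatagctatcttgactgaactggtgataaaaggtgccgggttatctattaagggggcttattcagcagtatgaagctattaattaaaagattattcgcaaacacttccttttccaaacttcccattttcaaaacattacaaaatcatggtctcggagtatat
Isg15: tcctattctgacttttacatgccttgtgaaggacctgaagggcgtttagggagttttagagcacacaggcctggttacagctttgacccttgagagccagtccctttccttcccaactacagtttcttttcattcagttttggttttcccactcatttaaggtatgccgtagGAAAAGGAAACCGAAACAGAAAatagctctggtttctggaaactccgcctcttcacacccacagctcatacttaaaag
Saa3 held 1 match to TTNNGCAA, at bases -99 to -92 from the start, and 1 match to the ISRE core, at -125 to -116. Prtn3 held 1 match to GAGGAA, at -95 to -90, and Chil3 held no match to the 3 motifs in this window. Isg15 held 3 overlapping matches to the ISRE core between -78 and -57. Among 32851 promoters of the same length, 9.56% held TTNNGCAA, 23.3% held GAGGAA and 2.98% held the ISRE core. A match here describes letters and is not a measured binding site.

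The old share stood above the young share at every gate limit examined. A minimum of 5 UMIs left 1166 old and 200 young barcodes, a minimum of 20 UMIs left 993 and 101, and a minimum of 50 UMIs left 611 and 38. When every cell was first thinned to 2000 UMIs and the minimum set to 4, 450 old barcodes (3.56%) and 65 young barcodes (0.525%) passed. Without the limit on Flt3 and Cd209a, genes of dendritic cells and their precursors, the gate held 1281 old and 186 young barcodes. The 29 old members just inside the limit (10 to 12 UMIs) had Saa3 at 272 CPM. The 37 old cells just outside it (7 to 9 UMIs) had Saa3 at 75.8 CPM. Other genes did not fall in that way: Chil3 was at 2284 CPM inside and 2301 CPM outside, and Ly6c2 at 330 and 390 CPM. At least 5 UMIs of the non-classical genes were held by 19 of the 29 cells inside and 15 of the 37 outside. Each age was sorted into its own library, and sort and age cannot be told apart here.

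**Figure D1:**
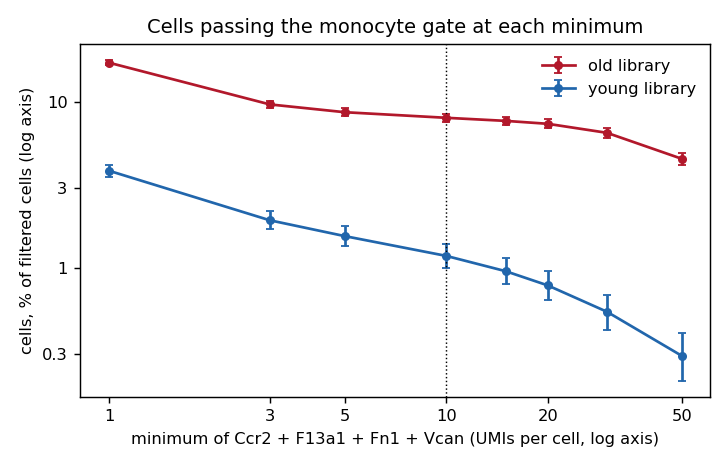
Share of filtered cells (y axis, %, log axis) with Csf1r and at most 1 UMI of Flt3 and Cd209a that reach each minimum of Ccr2 + F13a1 + Fn1 + Vcan (x axis, UMIs per cell, log axis), old library in red and young library in blue, with exact Clopper-Pearson 95% bars. At the minimum of 10 UMIs (dotted line) the old share was 7.98% and the young share 1.18%, and the curves do not meet at any minimum shown.

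The label was checked against 6 marker genes. The gate genes themselves chose the cells, so their levels are a description. Ccr2, the receptor for CCL2, stood at 1020 CPM in old members, against 56 CPM in old non-classical monocytes and 11.4 CPM in old neutrophils. F13a1, a coagulation factor subunit, stood at 869 CPM in members, against 11.9 CPM in non-classical monocytes and 11.6 CPM in neutrophils. Fn1 (fibronectin) stood at 820 CPM in members, against 23.5 CPM in non-classical monocytes and 9.12 CPM in neutrophils. Vcan (the proteoglycan versican) stood at 503 CPM in members, against 6.30 CPM in non-classical monocytes and 3.68 CPM in neutrophils. Of the 2 markers outside the gate, the serum amyloid gene Saa3 stood at 808 CPM (796 to 820) in members, against 16.9 CPM in non-classical monocytes, 16.3 CPM in neutrophils and 9.4 CPM in lymphocytes. Ly6c2, which encodes the Ly6C antigen, stood at 736 CPM in members, against 205 CPM in non-classical monocytes, 608 CPM in neutrophils and 311 CPM in lymphocytes. Its ratio to neutrophils was 0.28 log2 and turned negative when centred on the median gene (-0.65), and its reads could be split with the near-identical Ly6c1. Ly6g, the gene of the sorted antigen, was at 127 CPM in members and 45.7 CPM in low-neutrophil members, against 1005 CPM in old neutrophils and 163 CPM in old lymphocytes. Its summed level in members was therefore below that of lymphocytes, of which 11.4% held at least 10 UMIs of the neutrophil genes. Per cell the order was the reverse. At least 1 Ly6g UMI was found in 61.2% of members and 39.6% of lymphocytes, at median depths of 17708 and 8240 UMIs. Itgam, which encodes CD11b, stood at 390 CPM in members, against 600 CPM in neutrophils and 103 CPM in lymphocytes, and Ptprc, which encodes CD45, at 1352 CPM in members, 1419 CPM in neutrophils and 1203 CPM in lymphocytes.

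**Figure D2:**
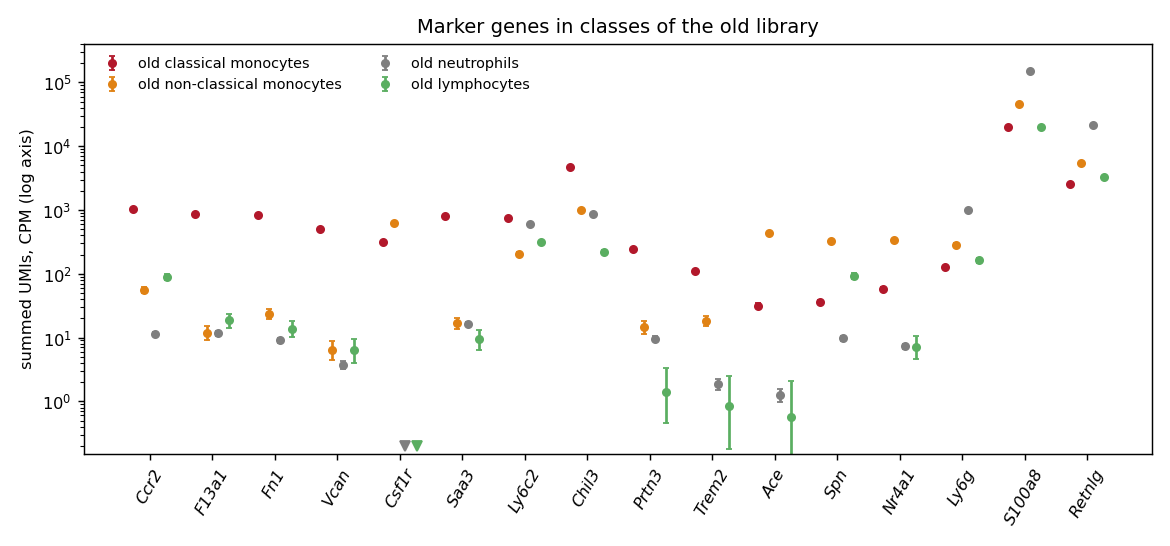
Summed UMIs of 16 genes in CPM (y axis, log axis) in old classical monocytes (red), old non-classical monocytes (orange), old neutrophils (grey) and old lymphocytes (green), with exact Poisson 95% bars; triangles mark genes at 0 UMIs. Ccr2, F13a1, Fn1, Vcan and Saa3 are highest in classical monocytes, Ace, Spn and Nr4a1 in non-classical monocytes, and Ly6g, S100a8 and Retnlg in neutrophils.

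Against 6367 neutrophils of the same library, members gave a larger part of their UMIs to ribosomal protein, lysosomal and antigen presentation genes. Ribosomal protein genes made up 16.0% of UMIs in members and 2.78% in neutrophils, whereas S100a8 and S100a9 together made up 3.65% in members and 29.4% in neutrophils. Of 6189 genes tested at 20 CPM or more in either class, 2955 (47.7%) were at least 2-fold higher in members and 517 (8.35%) at least 2-fold lower. The median gene stood at 0.93 on the log2 scale. Relative to that median, 1570 genes (25.4%) were higher and 1362 (22%) lower, and with S100a8 and S100a9 left out of the totals 2286 were higher and 904 lower. Log2 ratios were taken with 1 CPM added, and genes of any gate were left out of the counts.

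Antigen presentation genes were higher in members. All 8 measured MHC class II genes were at least 2-fold higher, also relative to the median gene, with a list median of 4.48 log2. The invariant chain gene Cd74 stood at 324 CPM in members and 10.9 CPM in neutrophils, and Ifi30, a lysosomal thiol reductase used in antigen processing, at 913 CPM in members and 19.3 CPM in neutrophils. H2-DMa, which loads peptides, stood at 126 CPM in members and 4.23 CPM in neutrophils. Of 24 lysosome genes, 18 were higher and 2 lower, or 13 higher and 3 lower relative to the median gene. Ctss stood at 1245 CPM in members and 41.6 CPM in neutrophils, and Ctsc, the protease that activates granule serine proteases, at 674 CPM in members and 30.7 CPM in neutrophils. Of 21 nuclear genes of oxidative phosphorylation, 18 were higher and none lower, and 9 were higher relative to the median gene.

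Receptors and lineage regulators differed in both directions. Of 18 pattern recognition genes 5 were higher and 5 lower, and of 9 Fc and complement receptor genes 2 were higher and 2 lower. The shares higher were below the 47.7% of all genes, and the shares lower were above the 8.35% of all genes. Relative to the median gene, 5 pattern recognition genes were higher and 8 lower, and 2 Fc and complement receptor genes were higher and 6 lower. Ly86, which encodes MD-1, the partner of the receptor CD180, stood at 286 CPM in members and 1.80 CPM in neutrophils. Msr1, a scavenger receptor, stood at 85.3 CPM in members and 1.25 CPM in neutrophils, and Fcgr1, the high-affinity IgG receptor, at 70.3 CPM in members and 1.27 CPM in neutrophils. The receptor of complement C5a, C5ar1, stood at 119 CPM in members and 417 CPM in neutrophils, and Trem1 at 32.3 CPM in members and 158 CPM in neutrophils. Among 32 transcription factors, 16 were higher and 4 lower, a share higher that was near that of all genes, or 12 higher and 11 lower relative to the median gene. Irf8, needed for monocyte commitment, stood at 129 CPM in members and 2.26 CPM in neutrophils. Klf4, needed for monocyte differentiation, stood at 106 CPM in members and 1.60 CPM in neutrophils. Cebpe, a factor of granulocyte maturation, and Ets2 were among the 4 that were lower, at -2.14 and -2.35 log2. The phospholipase gene Plcb1 had the largest ratio of the genes at 100 CPM or more, with 1094 CPM in members and 7.43 CPM in neutrophils. Ly86 (6.68 log2), Ms4a6c (6.34), the lipoprotein receptor gene Lrp1 (6.20) and S100a4 (5.97) were also among the 15 largest.

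Inflammatory mediators pointed in both directions. Ccl9 stood at 370 CPM in members and 14.4 CPM in neutrophils, while Il1b stood at 276 CPM in members and 1533 CPM in neutrophils. The glycolysis list had 0 higher and 4 lower of 18, with a median of -0.30 log2, or 10 lower relative to the median gene. Slc2a3, a glucose transporter gene, was the lowest of these at -2.70 log2. All 11 measured neutrophil markers were lower in members, with a median of -2.86 log2. S100a8 stood at 19772 CPM in members and 153320 CPM in neutrophils, S100a9 at 16738 CPM in members and 140426 CPM in neutrophils, and Retnlg at 2597 CPM in members and 21833 CPM in neutrophils. The member levels of S100a8 and Retnlg lay near those of old lymphocytes (19688 and 3237 CPM), which were not limited to low-neutrophil cells. S100a8 was uneven among these lymphocytes, with a median of 28 UMIs per cell, a 90th percentile of 193 and a maximum of 4530. In low-neutrophil members S100a8 stood at 5499 CPM and Retnlg at 885 CPM. The part of free neutrophil RNA and of doublets in the member levels was not tested. Cstdc5, Cstdc4 and Stfa2l1, stefin-type protease inhibitor genes whose near-identical copies can share reads, were the 3 lowest of the genes at 100 CPM or more, at -3.39, -3.32 and -3.29 log2.

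Against 498 non-classical monocytes of the same library, the differences were fewer and fell both ways. Of 6388 genes tested, 442 (6.92%) were at least 2-fold higher in members and 445 (6.97%) at least 2-fold lower, with a median of -0.07 log2. With mitochondrial and ribosomal protein genes left out of the totals, 635 were higher and 375 lower. Saa3, Prtn3, Cd93, Mt1 and Lgals1 had the 5 largest ratios among genes at 100 CPM or more. Besides Saa3 (5.50 log2), the granule protease gene Prtn3 stood at 245 CPM in members and 14.5 CPM in non-classical monocytes, where 1 cell held 60% of the UMIs and the level without it was 5.86 CPM. Cd93, a receptor of early myeloid cells and endothelium, stood at 132 CPM in members and 9.54 CPM in non-classical monocytes. The metallothionein gene Mt1 stood at 134 CPM in members and 11.7 CPM in non-classical monocytes, but 1 member held 1423 of its 2829 UMIs, and the member level without that cell was 67.2 CPM. Lgals1 (galectin-1) stood at 411 CPM in members and 43.1 CPM in non-classical monocytes. Chil3, which encodes the chitinase-like protein Ym1, stood at 4652 CPM in members and 991 CPM in non-classical monocytes. Trem2, a lipid-sensing receptor of macrophages, stood at 110 CPM in members and 18.2 CPM in non-classical monocytes.

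By list, 14 of 22 further classical monocyte genes were higher in members and none was lower, with a median of 1.20 log2. That list holds Saa3 and Ly6c2 and was drawn up with earlier results of these data known. Of 11 coagulation and matrix genes, 5 were higher and none lower. Coagulation factor X (F10) stood at 293 CPM in members and 104 CPM in non-classical monocytes, and the matrix protease gene Mmp19 at 33.1 CPM in members and 0.681 CPM in non-classical monocytes. Of 20 interferon-stimulated genes, 8 were higher and none lower, led by Ms4a4c and Slfn5 at 2.59 and 2.57 log2. Of 8 MHC class II genes, 3 were higher (Ifi30, H2-DMb1 and H2-DMa) and none lower, while Cd74 (324 CPM in members, 384 CPM in non-classical monocytes) and H2-Aa (89.5 and 90.4 CPM in the same order) were within 2-fold. Among receptors, Fcgr1 (2.00 log2) and Msr1 (2.00) were higher, and Fcgr4, the IgG receptor of non-classical cells, was lower at 81.5 CPM in members and 479 CPM in non-classical monocytes.

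All 10 measured non-classical markers outside the gate were lower in members, with a median of -2.84 log2. Spn (CD43) stood at 35.5 CPM in members and 327 CPM in non-classical monocytes, and Nr4a1, the factor that non-classical cells need, at 58.5 CPM in members and 339 CPM in non-classical monocytes. The survival gene Bcl2 stood at 18 CPM in members and 370 CPM in non-classical monocytes. The fatty acid receptor gene Cd36 stood at 6.50 CPM in members and 149 CPM in non-classical monocytes, and Pparg, a nuclear receptor of lipid metabolism, at 16.4 CPM in members and 304 CPM in non-classical monocytes. Of 18 lipid handling genes 5 were lower, 1 higher and 12 within 2-fold, and of 16 adhesion genes 5 were lower, 1 higher and 10 within 2-fold. The endothelial adhesion gene Pecam1 stood at 18.1 CPM in members and 299 CPM in non-classical monocytes. Neutrophil markers were also lower, in 8 of 11, with S100a8 at 19772 CPM in members and 45927 CPM in non-classical monocytes. The part of neutrophil RNA in that difference was not tested. With cells of at least 10 UMIs of the neutrophil genes left out of both classes, 452 genes were higher and 725 lower.

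**Figure D3:**
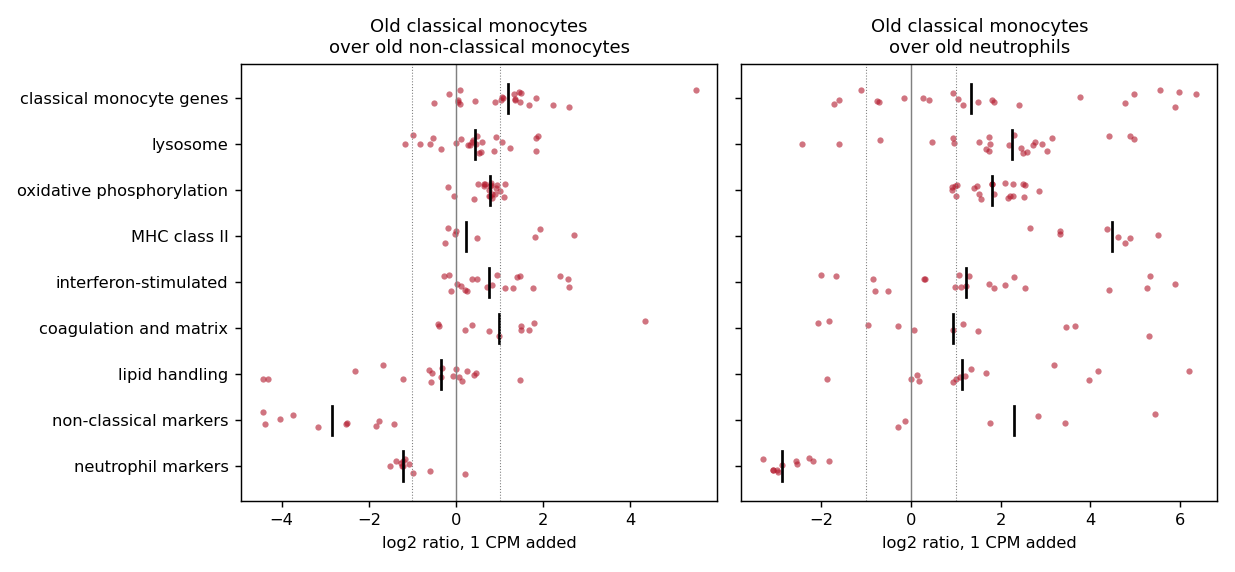
Log2 ratio (x axis, 1 CPM added) of each gene measured at 20 CPM or more in either class, by gene list (rows), for old classical monocytes over old non-classical monocytes (left) and over old neutrophils (right). Points are genes, black bars list medians, dotted lines 2-fold. The MHC class II median is 0.23 on the left and 4.48 on the right, and the non-classical marker median is -2.84 on the left.

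The 152 young cells under the gate allowed the same counts across age, a comparison added after the young count was known. Of 6452 genes tested, 139 (2.15%) were at least 2-fold higher in old members and 303 (4.7%) at least 2-fold lower, with a median of -0.16 log2. Relative to that median, 195 were higher and 241 lower, among them 21 interferon-stimulated and 4 MHC class II genes on the lower side. Old members were higher in Saa3, Prtn3, Chil3 and other acute-phase and granule genes, and lower in interferon-stimulated and MHC class II genes. Several of these differences were also seen in other classes, as given below, with Chil3, Ngp, Ltf, Camp and Lcn2 higher in old lymphocytes too. The gate genes Ccr2, F13a1 and Fn1 differed by less than 2-fold, at 1020, 869 and 820 CPM in old members and 759, 784 and 796 CPM in young cells. The fourth, Vcan, stood at 503 CPM (493 to 513) in old members and 110 CPM (97.4 to 125) in young cells. Ly6c2 stood at 736 CPM in old members and 969 CPM in young cells. Young cells carried more non-classical transcripts: 5 of 7 measured non-classical markers were lower in old members and none was higher. Values in the low-non-classical cells are therefore given for some genes and lists.

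Saa3, an acute-phase gene made by myeloid cells, stood at 808 CPM in old members and 28.9 CPM (22.4 to 36.6) in young cells, a ratio of 4.76 log2. The ratio was 4.31 in low-neutrophil cells and 3.39 in low-non-classical cells, against 2.07 in non-classical monocytes, 1.78 in neutrophils and 0.68 in lymphocytes. The young value rested on few cells, as 61 of its 68 UMIs came from 1 cell, without which it was 3.01 CPM. At least 1 Saa3 UMI was found in 62.9% of old members and 4.61% of young cells, against 8.36% of old lymphocytes at a median depth of 8240 UMIs. After thinning to 4000 UMIs per cell, which left out 1 cell of each age, the shares were 47.8% (44.8 to 50.8) of old members and 1.32% (0.161 to 4.70) of young cells.

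Chil3 stood at 4652 CPM in old members and 901 CPM in young cells, 2.37 log2, and at 2.31 in low-neutrophil and 1.99 in low-non-classical cells. Chil3 was also higher in old non-classical monocytes (2.71 log2), neutrophils (3.63) and lymphocytes (5.56). Prtn3, which encodes proteinase 3 of azurophil granules, stood at 245 CPM in old members and 14.4 CPM (10 to 20.2) in young cells, 4.0 log2. Lymphocytes held Prtn3 at 1.42 CPM in the old library and 0.747 CPM in the young one. A Prtn3 UMI was found in 80.0% of old members and 13.2% of young cells, against 1.39% of old lymphocytes. Elane (neutrophil elastase) stood at 54.1 CPM in old members and at 0 UMIs in young cells. A single member held 100 of the 1140 Elane UMIs. Mpo (myeloperoxidase) stood at 16.5 CPM in old members and 0 UMIs in young cells, and 1 member held 77 of its 347 UMIs. Set against a floor of 3 UMIs over the young group, the ratios were 42.5-fold for Elane and 12.9-fold for Mpo. These ratios are not lower bounds, as 50 old members held 86.2% of the UMIs of Elane, Mpo and Ctsg together.

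Mt1 stood at 134 CPM in old members and 11.5 CPM in young cells, or at 67.2 and 9.46 CPM without the cell with the most Mt1 UMIs in each group (2.71 log2). Other genes that were higher included Trem2, at 110 CPM in old members and 38.6 CPM in young cells, and the lysosomal protease gene Ctsl, at 133 CPM in old members and 33.1 CPM in young cells. Mmp19 stood at 33.1 CPM in old members and 6.37 CPM in young cells (3.86 CPM without 1 cell), and F10 at 293 CPM in old members and 127 CPM in young cells. Trem2 and Ctsl differed by 0.00 and 0.37 log2 in non-classical monocytes. Old non-classical monocytes held less of these genes than old members, with Trem2 at 18.2 CPM and Ctsl at 36.8 CPM. The same held for Mmp19 at 0.681 CPM, F10 at 104 CPM, Mt1 at 11.7 CPM and Prtn3 at 14.5 CPM. Young cells carried more non-classical transcripts, and the part of that difference in the ratios of these genes was not tested. Of 18 glycolysis genes, 4 were higher in old members and none lower, beside 2.15% of all genes tested higher. In low-neutrophil cells 2 of 17 were higher, beside 2.39%. Gapdh stood at 1503 CPM in old members and 631 CPM in young cells, a ratio of 1.25 log2, against 1.30 in neutrophils, 0.88 in non-classical monocytes and 0.66 in lymphocytes. Of 8 measured senescence genes none was 2-fold different. Cdkn1a, which encodes the cell cycle inhibitor p21, stood at 28.7 CPM in old members and 24.6 CPM in young cells.

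Of 18 acute-phase and antimicrobial genes, 11 were higher in old members and 1 lower. That count holds the neutrophil granule genes Ngp (6.90 log2), Ltf (6.24), Camp (6.21) and Lcn2 (3.56) and the pair S100a8 (2.35) and S100a9 (1.95). The same genes were higher in old lymphocytes, by 5.59 log2 for Ngp, 6.14 for Ltf, 6.25 for Camp, 3.69 for Lcn2 and 2.42 for S100a8. In lymphocytes 13 of 15 genes of this list were higher, beside 3.36% of all genes tested. Ngp stood at 928 CPM in old members, below its 1098 CPM in old lymphocytes, and at 213 CPM in low-neutrophil old members. Per cell, Ngp had a median of 4 UMIs in old members and 2 in old lymphocytes, with maxima of 902 and 727. The summed level of 14 neutrophil markers was 41056 CPM in old members and 10380 CPM in young cells, against 43161 CPM in old lymphocytes and 9679 CPM in young lymphocytes. None of the 14 was at 0 UMIs, and their part in the result was not tested.

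Interferon-stimulated genes were lower in old members as a group. Of 28 measured, 21 were lower and none higher, with a median of -1.30 log2 beside -0.16 over all genes tested. Isg15, a ubiquitin-like modifier, stood at 31 CPM (28.7 to 33.5) in old members and 136 CPM (122 to 152) in young cells. Ifit3, an antiviral gene of the IFIT family, stood at 5.22 CPM in old members and 53.1 CPM in young cells, and Irf7, the regulator of the type I interferon response, at 46.9 CPM in old members and 164 CPM in young cells. Ifi211 stood at 63.0 CPM in old members and 213 CPM in young cells, and Ifi213 at 7.98 CPM in old members and 89.2 CPM in young cells. Both belong to a family of similar genes on chromosome 1, among which reads can be split. In low-non-classical cells 25 of 28 were lower, beside 5.97% of all genes tested. In low-neutrophil cells 22 of 27 were lower, beside 3.93%. The list was lower in old non-classical monocytes in 13 of 22 genes (median -1.02 log2), where 1.90% of all genes tested were lower. In old neutrophils it was lower in 17 of 20 (median -1.45), where 26.4% of all genes tested were lower and their median was -0.64. In lymphocytes 1 of 19 was lower (median -0.55), beside 1.83% of all genes tested. Of the 25 listed genes with a promoter entry, 14 (56%) held the ISRE core, marked above for Isg15, against 3.88% of the tested genes with an entry. The list was chosen as interferon-stimulated genes, and this share covers the whole list, so it describes the list and not the genes that were lower.

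MHC class II genes were lower too, with 5 of 9 measured lower, none higher and a median of -1.08 log2. In low-neutrophil cells 4 of 9 were lower with a median of -0.56, beside 3.93% of all genes tested. Most of these UMIs lay in few cells, as 23 young cells held 93.8% of the young UMIs of Cd74, H2-Aa, H2-Ab1 and H2-Eb1. The total of the whole list per cell, which includes Ifi30, had a median of 5 UMIs in both groups after thinning to 2000 UMIs. Its 90th percentile was 11 UMIs in old members and 15.6 in young cells. For those 4 genes alone the median was 0 in both groups. At least 1 of their UMIs was found in 19.7% of old members and 35.5% of young cells, and at least 5 in 5.75% and 11.8%. Cd74 stood at 324 CPM in old members and 1239 CPM in young cells, H2-Aa at 89.5 CPM in old members and 384 CPM in young cells, and H2-Eb1 at 42.8 CPM in old members and 217 CPM in young cells. Their master regulator Ciita stood at 15.8 CPM in old members and 34.4 CPM in young cells. In low-non-classical cells the ratios were -2.64 log2 for Cd74 and -3.00 for H2-Aa. In those same cells markers of other cell types were lower in old members too, in 4 of 4 measured B cell markers (median -4.05 log2), 4 of 4 T cell markers (-3.92), 8 of 8 NK cell markers (-5.23) and 1 of 2 dendritic cell markers, and their part in the result was not tested. In non-classical monocytes 4 of 8 MHC class II genes were lower (Cd74 at -1.38 log2), beside 1.90% of all genes tested, and in lymphocytes none of 12, beside 1.83%. B cell markers, which can bring MHC class II transcripts, summed to 98.8 CPM in old members and 262 CPM in young cells, none of the 8 being at 0 UMIs, and their part in the result was not tested. With cells of at least 0.5% other markers left out, 5 MHC class II and 24 interferon-stimulated genes were lower, beside 4.31% of all genes tested.

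Some genes that were lower in old members were lower across classes. Dmd stood at 1.61 CPM in old members and 278 CPM in young cells, and its ratio was -6.74 log2 in members, -6.94 in non-classical monocytes and -4.35 in lymphocytes. Sugct stood at 1.71 CPM in old members and 188 CPM in young cells, with -5.73 log2 in non-classical monocytes and -7.33 in neutrophils. The cytotoxic granule gene Gzma stood at 0.380 CPM in old members and 166 CPM in young cells, where 4 cells held at least 10 UMIs and 1 of them held 192 (85.9 CPM without it). Hpgd, which inactivates prostaglandins, stood at 30.6 CPM in old members and 225 CPM in young cells (-2.84 log2) and was lower in old non-classical monocytes too (-2.46). Bcl2 stood at 18 CPM in old members and 144 CPM in young cells, -2.94 log2, against -0.46 in non-classical monocytes. Old non-classical monocytes held more of both genes than old members, with Bcl2 at 370 CPM and Hpgd at 92.6 CPM. At least 5 UMIs of the non-classical genes were found in 61.8% of young cells and 23.9% of old members. The part of non-classical transcripts in the Bcl2 and Hpgd ratios was not tested.

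**Figure D4:**
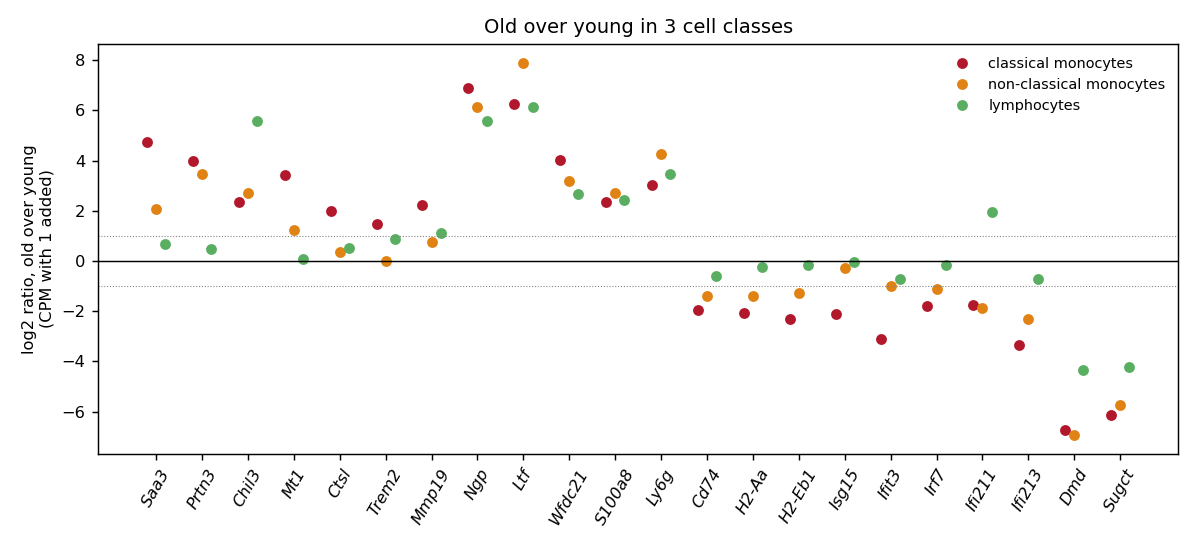
Log2 ratio of old over young (y axis, CPM with 1 added) for 22 genes in classical monocytes (red), non-classical monocytes (orange) and lymphocytes (green), with dotted lines at 2-fold. Saa3 is at 4.76, 2.07 and 0.68 in these classes, Ngp is at 6.90, 6.13 and 5.59, and Isg15 is at -2.10 in classical monocytes.

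Members also varied among themselves. After thinning each to 2000 UMIs, which left 1078 members, the genes with the largest variance over mean were the neutrophil genes S100a8 (89.3), S100a9 (82.6) and Ngp (16.9), then Cd74 (13.2) and Camp (12.7). S100a8 had a median of 8 UMIs per thinned member, a 90th percentile of 92.3 and a maximum of 356, so its counts were spread unevenly over members. Saa3, found in 8.36% of old lymphocytes, had a variance over mean of 5.55, with 0 UMIs in the median member and 6 at the 90th percentile. Chil3, found in 54.0% of old lymphocytes and 2.92% of young ones, had a variance over mean of 5.37, with 9 UMIs in the median member and 19 at the 90th percentile. At 4000 UMIs, 16 of the 20 most variable genes were shared. The gene most like Saa3 across members was Chil3, with a Spearman rho of 0.37 at 2000 UMIs and 0.40 at 4000, over 1078 cells of 1 library that share its depth and background. Cd74 was most like H2-Aa at 2000 UMIs (rho 0.51) and H2-Ab1 at 4000 (rho 0.53).

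Counts of cells over a minimum of UMIs, with limits set after seeing the data, were made for single genes and gene groups. At least 10 Prtn3 UMIs were held by 109 old members (10.1%), with 64 members within 20% of that limit, and by no young cell. At least 10 Saa3 UMIs were held by 386 old members (35.8%, 32.9 to 38.7), with 51 members within 20% of that limit, and by 1 young cell of 152. These 386 held 94.2% of the Saa3 UMIs of the members. At least 20 UMIs of Cd74, H2-Aa, H2-Ab1 and H2-Eb1 together were held by 88 old members (8.16%) and 23 young cells (15.1%), and 16 of the 88 also reached the Saa3 limit. At least 5 UMIs of Elane, Mpo and Ctsg together were held by 50 old members (4.63%) and no young cell, and these 50 held 86.2% of the old UMIs of the 3 genes and included 13 members over the Saa3 limit. At least 20 UMIs of the cell cycle genes Mki67, Top2a, Birc5, Ube2c, Ccnb2 and Stmn1 together were held by 51 old members (4.73%, 3.54 to 6.17) and no young cell, a count of 0 of 152 that allows a share of up to 2.40%. Of these 51, 27 were also among the 50 with granule protease genes, and none was among the 88 with MHC class II genes. Their median depth was 26774 UMIs, above the 17708 of all members, and the part of depth and of doublets was not tested. As summed counts, 6 of the 8 cell cycle genes measured, from a list of 18, were higher in old members than in young cells. Among all genes tested 2.15% were higher. Stmn1, which encodes a microtubule regulator, stood at 60 CPM in old members and 4.25 CPM in young cells (1.71 CPM without 1 cell), and Mki67 at 27.2 CPM in old members and 4.67 CPM in young cells. With each cell weighted equally, 2 cell cycle genes were higher. After thinning to 4000 UMIs, Mki67 was found in 5.01% (3.79 to 6.49) of old members and 3.97% (1.47 to 8.45) of young cells, intervals that overlap.

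**Figure D5:**
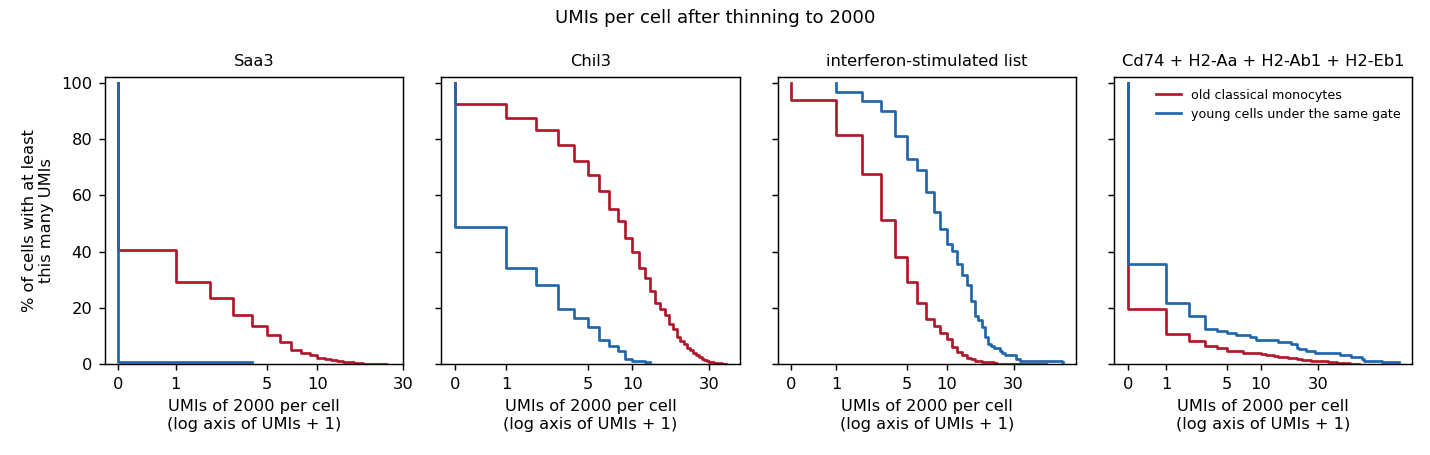
Share of cells (y axis, %) that hold at least the number of UMIs on the x axis (log axis of UMIs + 1) after thinning to 2000 UMIs per cell, for 1078 old classical monocytes (red) and 152 young cells under the same gate (blue). Saa3 is found in 40.6% of old and 0.658% of young cells, the median Chil3 count is 9 in old and 0 in young cells, and the median total of interferon-stimulated genes is 4 in old and 9 in young cells.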

How the data were processed

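The authors deposited 1 matrix of raw UMI counts for each age, with 32285 genes. Cell Ranger 7.2.0 is named per the file headers, and build mm10 per the submitters' processing notes. The annotation release and the way cells were called are not given in the sources used here. Barcodes with fewer than 200 genes, or with mitochondrial genes above 20% of UMIs, were dropped (817 old, 678 young). The gates were applied to the counts. Non-classical monocytes had at least 5 UMIs of Ace, Treml4, Adgre4 and Cd300e, at least 1 UMI of Csf1r and fewer than 10 UMIs of the member genes. Neutrophils had at least 10 UMIs of Csf3r, Cxcr2 and Mmp9, no Csf1r and at most 2 UMIs of the member genes. Both had at most 1 UMI of Flt3 and Cd209a, and neutrophils at most 1 UMI of 6 B and T cell genes. Lymphocytes had at least 5 UMIs of those 6 genes and no Csf1r.

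UMIs were summed per class and scaled to CPM. A gene at 20 CPM or more in either class was called higher or lower where its ratio, with 1 CPM added, reached 2-fold. CPM are not divided by length, so levels were not compared between genes. No doublet caller was run. Cells with markers of other types were counted and left out in alternatives. Levels without the cell holding most UMIs of a gene were added after seeing the data. Thinning drew UMIs without replacement with a fixed seed. Named genes were the gate and marker genes, the 15 largest and 10 smallest ratios among genes at 100 CPM or more, the 15 with the highest CPM in members, the 20 most variable genes and up to 6 genes of each of 39 lists. C5ar1, Cebpe, Ciita, Ets2, F10, Irf7, Mki67, Mpo, Spn and Trem1 fall outside this rule and were chosen after their values were seen. Some genes under this rule are not reported here. Genes of the comparison with young cells were named by the same rule after its values were seen. The members and lists were chosen with earlier results of these data known, and the ratios were first tested on simulated data. Thinned totals were checked on the cells themselves. Python 3.11.15, numpy 2.4.6, pandas 2.3.3, scipy 1.17.1 and matplotlib 3.10.9 were used.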

Additional observations from a re-analysis of the deposited data

How the results depend on the processing

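No paired analysis was possible because each age had 1 library and no test was made. With cells thinned to 2000 UMIs and a minimum of 4 UMIs, 450 old and 65 young cells passed the gate, and with a minimum of 20 UMIs 101 young cells did. Against neutrophils, centring on the median gave 1570 genes higher and 1362 lower, no floor 6217 and 869, a floor of 100 CPM 704 and 264, and a total without S100a8 and S100a9 904 lower. Against non-classical monocytes, no floor gave 954 higher and 842 lower, a floor of 100 CPM 175 and 210, thinning 685 lower, and leaving out cells with neutrophil genes 725 lower. Against young cells, no floor gave 674 higher and 953 lower, a floor of 100 CPM 43 and 87, and thinning 316 higher. Interferon-stimulated genes lower in old members numbered 10 at a floor of 100 CPM. Cell cycle genes higher in old members numbered 3 after thinning, 2 with equal weight per cell, 13 with no floor and 0 at a floor of 100 CPM. The other settings kept each of these counts within 1.5 times. Direction was followed across settings only for a chosen set of genes, and no called gene among them changed direction. Of 1092 ratios of these genes under other settings, 381 moved by more than counting error and 711 did not. Lyz2 against neutrophils fell under 2-fold when centred (0.88 log2), and Nr4a1 against young cells did in low-non-classical cells (-0.96 log2). The log2 ratio of Ly6c2 against neutrophils, 0.28, was -0.17 without S100a8 and S100a9 in the total and -0.65 when centred. Limits are the single library per age, the small young group, free neutrophil RNA and the absence of a doublet caller. The cause of these changes was not tested.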
